A study of Saccharomyces cerevisiae with 60 samples.

Results

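The 50 genes described here encode the nuclear-coded subunits of the yeast respiratory chain and ATP synthase, the mitochondrial citric acid cycle enzymes, and Hap4, which controls many of them. They were listed by name, with earlier results of these data known, and all 50 were found among the 7126 features of the count tables. By role they are 3 NADH dehydrogenases, 4 succinate dehydrogenase subunits, 9 cytochrome bc1 subunits, 2 cytochromes c, 9 cytochrome c oxidase subunits, 12 ATP synthase subunits, 10 citric acid cycle genes and the regulator HAP4. The study measured poly(A) RNA of Saccharomyces cerevisiae before and during heat shock in cells lacking one or both of the main heat shock transcription programmes. All cells were W303 haploids of an anchor-away background, in which rapamycin draws a tagged Hsf1 out of the nucleus.

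The 4 strain states were compared, and every culture, heated or not, had first spent 45 min at 25 °C with either DMSO or rapamycin in DMSO. In the -hsf1/msn2Δ/msn4Δ state, MSN2 and MSN4 were deleted and rapamycin was given. In the msn2Δ/msn4Δ state, the same deletion strain was given DMSO alone. In the -hsf1 state, the strain with intact MSN2 and MSN4 was given rapamycin, and in the wildtype state that strain was given DMSO, so that wildtype here still carries the anchor-away alleles. Each state was sampled at 25 °C without heat and after 10 min and 30 min at 37 °C or at 42 °C. This gives 20 groups of 3 libraries each, or 60 libraries. The medium was the glucose-rich YPD with adenine, in which yeast ferments and keeps respiration low. The labels do not say whether the 3 replicates of a group were separate cultures, so the p-values below measure the spread between these libraries, which may be partly technical.

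In respiration, electrons taken from NADH and succinate pass through ubiquinone, the cytochrome bc1 complex and cytochrome c to cytochrome c oxidase, and the proton gradient so made drives ATP synthase. Saccharomyces cerevisiae has no proton-pumping complex I and uses single-protein NADH dehydrogenases in its place: Ndi1 faces the matrix, and Nde1 and Nde2 face the intermembrane space. Glucose represses many of these genes, and the CCAAT-binding Hap2/3/4/5 complex activates them when glucose is short, with Hap4 as the subunit whose amount is regulated. Hsf1 activates chaperone genes on heat shock, and Msn2 and Msn4 activate general stress genes through the stress response element CCCCT.

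The libraries held 3848210 to 10142858 gene counts (median 5938357), and all 50 genes passed the filter on low counts. CYC7 was the only one without a count in some libraries; 3 counts, the level taken as the detection floor, correspond to 0.296 CPM in the deepest and 0.780 CPM in the shallowest library. CPM is a gene's count relative to the library total, and the levels below use totals adjusted by TMM, edgeR's scaling by the typical gene. In the 30 libraries of the deletion strain the highest level of MSN2 was 0.332 CPM, against 99.3 to 432.8 CPM in the 30 others. The highest level of MSN4 was 1.49 CPM in the deletion strain, against 88.0 to 708.1 CPM, and both genes go with the labels. HSF1 mRNA is no check of the labels, because anchor-away moves the protein. Libraries far from the other 2 of their group by their typical gene were msn2Δ/msn4Δ 42 °C 10 min replicate 1, -hsf1/msn2Δ/msn4Δ 25 °C replicate 2 and 37 °C 30 min replicate 2, -hsf1 25 °C replicate 1 and wildtype 37 °C 10 min replicate 3; results that turn on one of them are given with and without it. Short members varied more between replicates: the 22 with a coding length under 500 bases had a median SD of 0.522 on the log2 scale (0.266 to 1.02), against 0.326 (0.204 to 0.582) for the 28 longer ones. Their deviations also moved together within a library, with a median correlation of 0.566 between pairs of short genes. This describes genes that share 60 libraries. It went partly with the library sets described below. In the set of wildtype 25 °C replicate 3 (0.60), the mean deviation of short genes lay above the group mean in every library (0.05 to 0.82). The other sets held both signs. A few members overlap another annotated feature, ATP1 and IDH2 on the opposite strand and ATP14 on the same strand, and reads there may be split or shared.

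The windows upstream of 8 members are shown because these genes carry the changes below: 3 pairs in which one isoform can take the place of the other (NDE1 and NDE2, COX5A and COX5B, CYC1 and CYC7), the citrate synthase gene CIT1, and HAP4. Each runs 5′ to 3′ on the coding strand from 250 bases before to 50 bases after the annotated start of the gene in build R64, and capitals mark CCAAT (the core bound by the Hap complex) and CCCCT (the core bound by Msn2 and Msn4) on either strand, so that ATTGG and AGGGG are capitalised too. The letters of the 2 motifs do not overlap in any of the 8 windows.
NDE2, chrIV:302961-303260, plus strand: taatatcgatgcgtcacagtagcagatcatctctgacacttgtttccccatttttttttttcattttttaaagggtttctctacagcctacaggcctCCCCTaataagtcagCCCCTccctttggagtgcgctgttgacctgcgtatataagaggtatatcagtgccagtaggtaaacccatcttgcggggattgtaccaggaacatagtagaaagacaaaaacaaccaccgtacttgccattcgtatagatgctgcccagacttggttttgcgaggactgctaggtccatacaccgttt
NDE1, chrXIII:556426-556725, minus strand: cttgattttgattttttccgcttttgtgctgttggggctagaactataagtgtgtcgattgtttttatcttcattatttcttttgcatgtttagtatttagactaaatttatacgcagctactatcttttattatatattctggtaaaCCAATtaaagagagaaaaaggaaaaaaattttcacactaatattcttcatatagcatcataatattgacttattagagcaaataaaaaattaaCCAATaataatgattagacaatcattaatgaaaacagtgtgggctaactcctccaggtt
COX5B, chrIX:154972-155271, plus strand: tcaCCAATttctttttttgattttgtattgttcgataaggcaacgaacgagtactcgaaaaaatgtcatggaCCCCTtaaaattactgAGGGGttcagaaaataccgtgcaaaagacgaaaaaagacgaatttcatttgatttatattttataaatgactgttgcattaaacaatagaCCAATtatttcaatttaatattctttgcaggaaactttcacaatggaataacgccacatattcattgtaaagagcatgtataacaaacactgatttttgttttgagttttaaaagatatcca
COX5A, chrXIV:531475-531774, plus strand: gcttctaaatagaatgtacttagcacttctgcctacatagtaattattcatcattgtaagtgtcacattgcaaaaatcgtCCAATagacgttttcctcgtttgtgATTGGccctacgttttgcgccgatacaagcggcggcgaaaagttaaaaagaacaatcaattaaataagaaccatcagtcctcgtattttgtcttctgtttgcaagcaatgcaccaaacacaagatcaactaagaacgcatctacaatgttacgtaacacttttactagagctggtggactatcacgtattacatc
CYC7, chrV:79928-80227, minus strand: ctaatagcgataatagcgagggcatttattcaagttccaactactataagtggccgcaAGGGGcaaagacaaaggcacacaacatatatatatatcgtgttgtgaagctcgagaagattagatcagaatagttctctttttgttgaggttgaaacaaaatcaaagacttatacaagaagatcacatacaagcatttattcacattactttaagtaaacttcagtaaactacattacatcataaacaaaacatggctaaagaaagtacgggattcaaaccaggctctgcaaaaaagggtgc
CYC1, chrX:526085-526384, plus strand: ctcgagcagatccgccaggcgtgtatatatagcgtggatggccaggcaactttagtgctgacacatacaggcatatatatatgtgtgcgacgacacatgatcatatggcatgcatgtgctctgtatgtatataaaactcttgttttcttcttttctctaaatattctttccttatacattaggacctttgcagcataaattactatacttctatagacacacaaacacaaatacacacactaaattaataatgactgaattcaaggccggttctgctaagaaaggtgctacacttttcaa
CIT1, chrXIV:631012-631311, minus strand: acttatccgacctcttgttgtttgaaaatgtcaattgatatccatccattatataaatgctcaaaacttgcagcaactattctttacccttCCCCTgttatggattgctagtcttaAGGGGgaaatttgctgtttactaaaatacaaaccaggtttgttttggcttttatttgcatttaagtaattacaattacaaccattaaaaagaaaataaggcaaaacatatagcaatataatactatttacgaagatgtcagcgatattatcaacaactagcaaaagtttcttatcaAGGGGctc
HAP4, chrXI:231977-232276, plus strand: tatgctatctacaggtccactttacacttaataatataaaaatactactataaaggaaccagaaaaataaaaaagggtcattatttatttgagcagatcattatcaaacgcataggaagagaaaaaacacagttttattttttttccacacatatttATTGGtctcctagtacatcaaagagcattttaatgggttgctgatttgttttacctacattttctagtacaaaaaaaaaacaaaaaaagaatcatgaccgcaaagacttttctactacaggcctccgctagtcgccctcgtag

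Across all 50 windows, CCAAT or its complement was found in 38 (76%), against 43.3% of the 5987 windows of the same length in the genome, and 18 members held at least 2 copies, as did 10.9% of all windows. CCCCT was found in 22 members (44%), against 21.6% of all windows. The heat shock element core, which Hsf1 binds and which was searched on both strands as GAANNTTC or TTCNNGAA, was found in 8 members (16%), against 22.6% of all windows. The isoform genes differed in these letters: NDE1 held 2 copies of CCAAT and no CCCCT, while NDE2 held 2 copies of CCCCT and no CCAAT. COX5A held 2 copies of CCAAT alone, and COX5B held 2 of each. CIT1 held 3 copies of CCCCT, HAP4 held 1 CCAAT, CYC7 held 1 CCCCT, and the window of CYC1 held neither. A match is a run of letters, and a window without one says nothing about binding elsewhere.

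Before heat, no member was called different between the 4 strain states. The table names place the libraries in 6 sets, and the 3 libraries of each group lie in 3 different sets. The main fit had no term for set. Every deletion-strain library lies in 3 of the sets and every other library in the other 3. Set and deletion therefore cannot be told apart in the comparisons of deletion states with wildtype at 25 °C. The same holds wherever levels or shares of heated deletion and other libraries are set side by side. In wildtype cells at 25 °C, levels per kilobase of coding length ran over several orders: CYC1 (3319 ± 774), ATP2 (2112 ± 452) and NDE1 (1155 ± 112) stood highest, and HAP4 (46.1 ± 7.94), COX5B (11.3 ± 10.2), CYC7 (4.12 ± 4.74) and NDE2 (0.482 ± 0.143 CPM per kilobase) stood lowest (SD, n = 3 each). The comparisons used edgeR's quasi-likelihood test, where a call needs a Benjamini-Hochberg adjusted p under 0.05 over all 6070 genes tested and a change of at least 1 on the log2 scale in either direction. For -hsf1 against wildtype, 0 members were called beside 0.198% of all genes, with 1 member at an unadjusted p under 0.05. For msn2Δ/msn4Δ against wildtype, 0 were called beside 0.115% of all genes, with 4 at an unadjusted p under 0.05. For -hsf1/msn2Δ/msn4Δ, 0 were called against wildtype beside 0.494% of all genes and 0 against msn2Δ/msn4Δ beside 0.329%, with 3 and 0 at an unadjusted p under 0.05. DESeq2 also called 0 in each of the 4. The members' median differences were 0.09, 0.13, 0.05 and -0.04 in that order.

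In wildtype cells the members moved upward early at 37 °C and apart from each other later. After 10 min at 37 °C, 24 of 50 rose and 0 fell, where 21% of all genes tested were called higher and 22.2% lower. The members' median change was 0.96, that of all genes near 0. At 30 min, 4 rose and 15 fell (all genes 14.4% higher and 13.1% lower), with a median of -0.43. At 42 °C, 14 rose and 1 fell after 10 min (23.1% and 18.2%), with a median of 0.49, and 13 rose and 11 fell after 30 min (30.2% and 29.5%), with a median of 0.12, so that the members' share of calls in each direction was then below that of all genes. Scaled by library totals alone, which moves the median of all genes by -0.13 to -0.55 in these 4 comparisons, the splits became 12 higher and 1 lower, 3 and 11, 8 and 3, and 7 and 14, and the median at 42 °C 30 min turned to -0.47. The call of 15 lower genes at 37 °C 30 min also leaned on the wildtype 25 °C replicate 3 library, without which 6 rose and 6 fell. Under every alternative fit and with each library left out, 12 of the 24 calls at 37 °C 10 min held. At 37 °C 30 min 3 of 4 higher and 6 of 15 lower calls held. At 42 °C 8 of 14 and 0 of 1 held after 10 min, and 7 of 13 and 7 of 11 after 30 min.

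**Figure D1:**
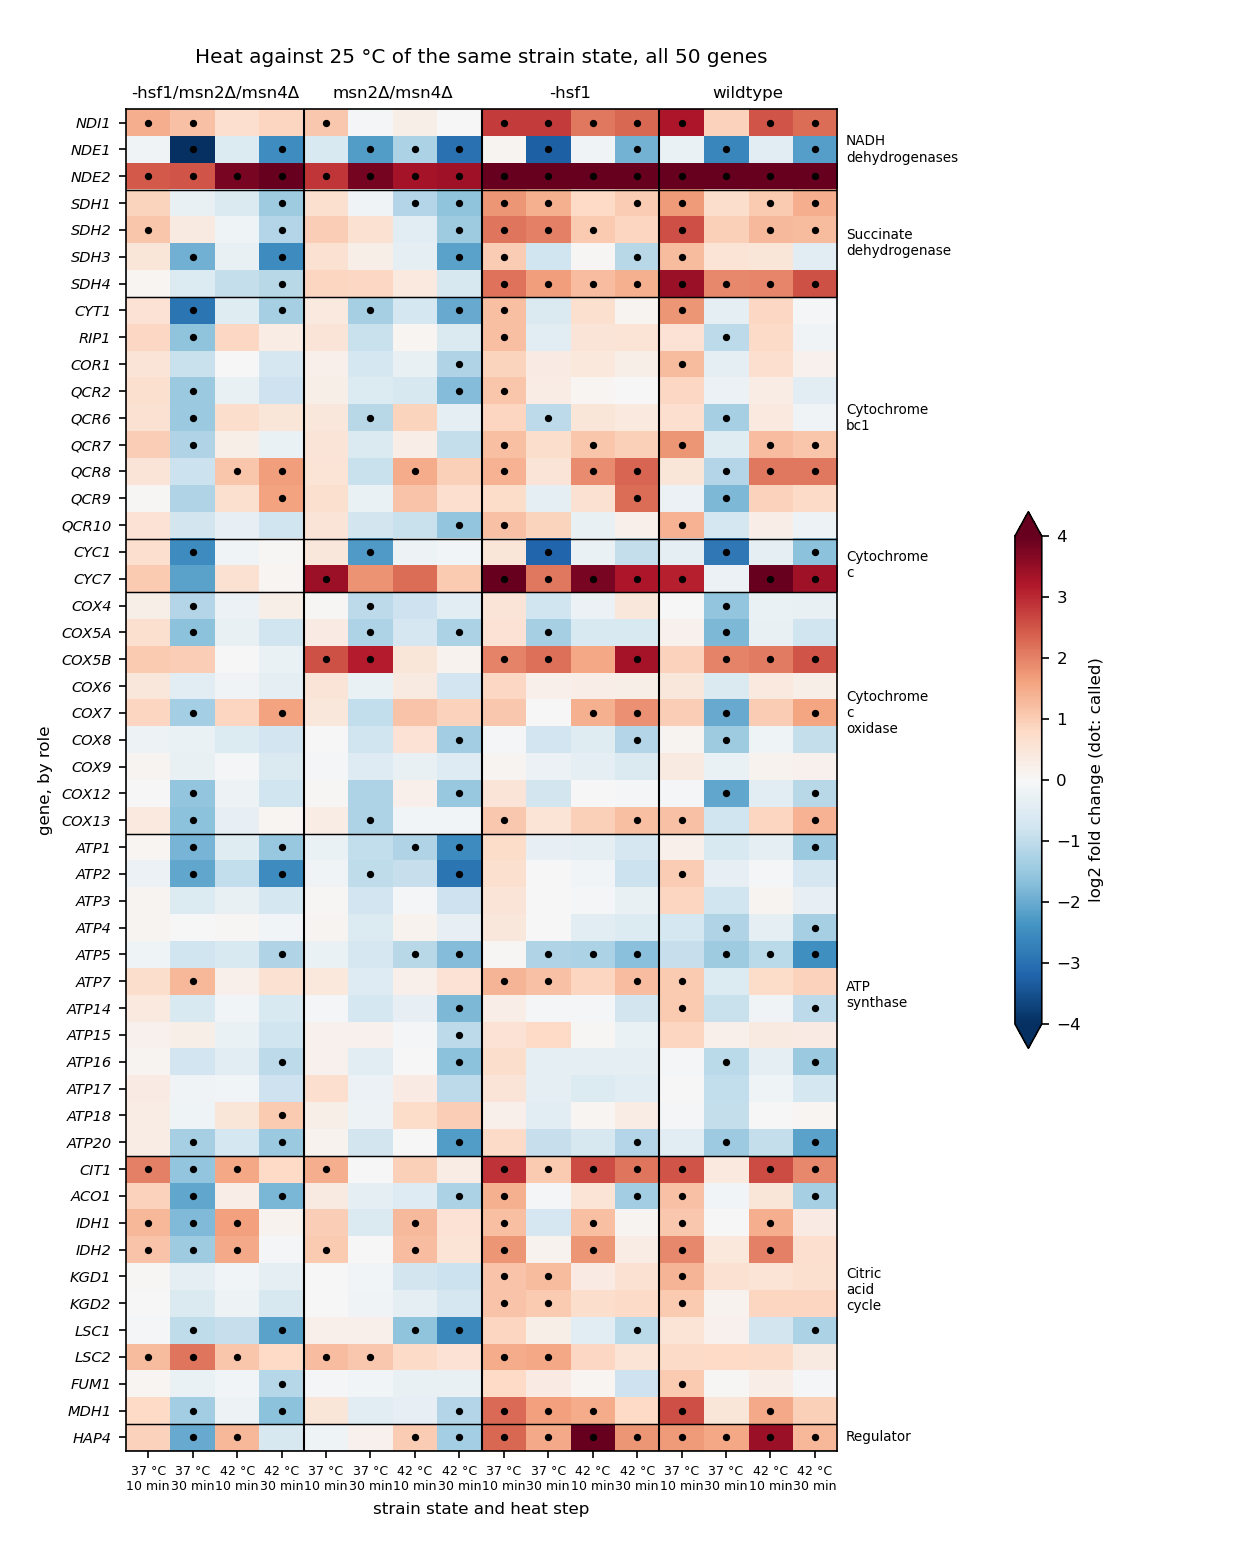
Heatmap of the log2 change with heat of each of the 50 genes (rows, by role) in 16 comparisons with 25 °C (columns, by strain state, temperature and time); colour runs from -4 to 4 and a dot marks a call. NDE2 is red in all 16 columns, NDE1 is blue in every 30 min column, and the most genes called lower are the 23 of -hsf1/msn2Δ/msn4Δ cells at 37 °C 30 min and the 22 of msn2Δ/msn4Δ cells at 42 °C 30 min.

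HAP4, the glucose-regulated activator subunit, rose in wildtype cells under every heat condition. Its libraries held 67.1, 71.4 and 91.8 CPM at 25 °C, 212, 146 and 390 CPM after 10 min at 37 °C, 262, 255 and 153 CPM after 30 min at 37 °C, 635, 790 and 1108 CPM after 10 min at 42 °C, and 222, 170 and 190 CPM after 30 min at 42 °C. Every heated library lay above every unheated one, and the 42 °C 10 min libraries lay above all others. The log2 changes were 1.70 ± 0.35 (SE; adjusted p = 5.81e-05, edgeR), 1.54 ± 0.35 (0.000413), 3.46 ± 0.38 (7.58e-11) and 1.34 ± 0.35 (0.00073) in that order. The value at 42 °C 30 min was 0.76 and no longer called under library totals. After 10 min it was 1.76 ± 0.35 higher at 42 °C than at 37 °C (adjusted p = 0.00011, edgeR), and at 42 °C it changed by -2.12 ± 0.36 between 10 and 30 min (3.7e-06).

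**Figure D2:**
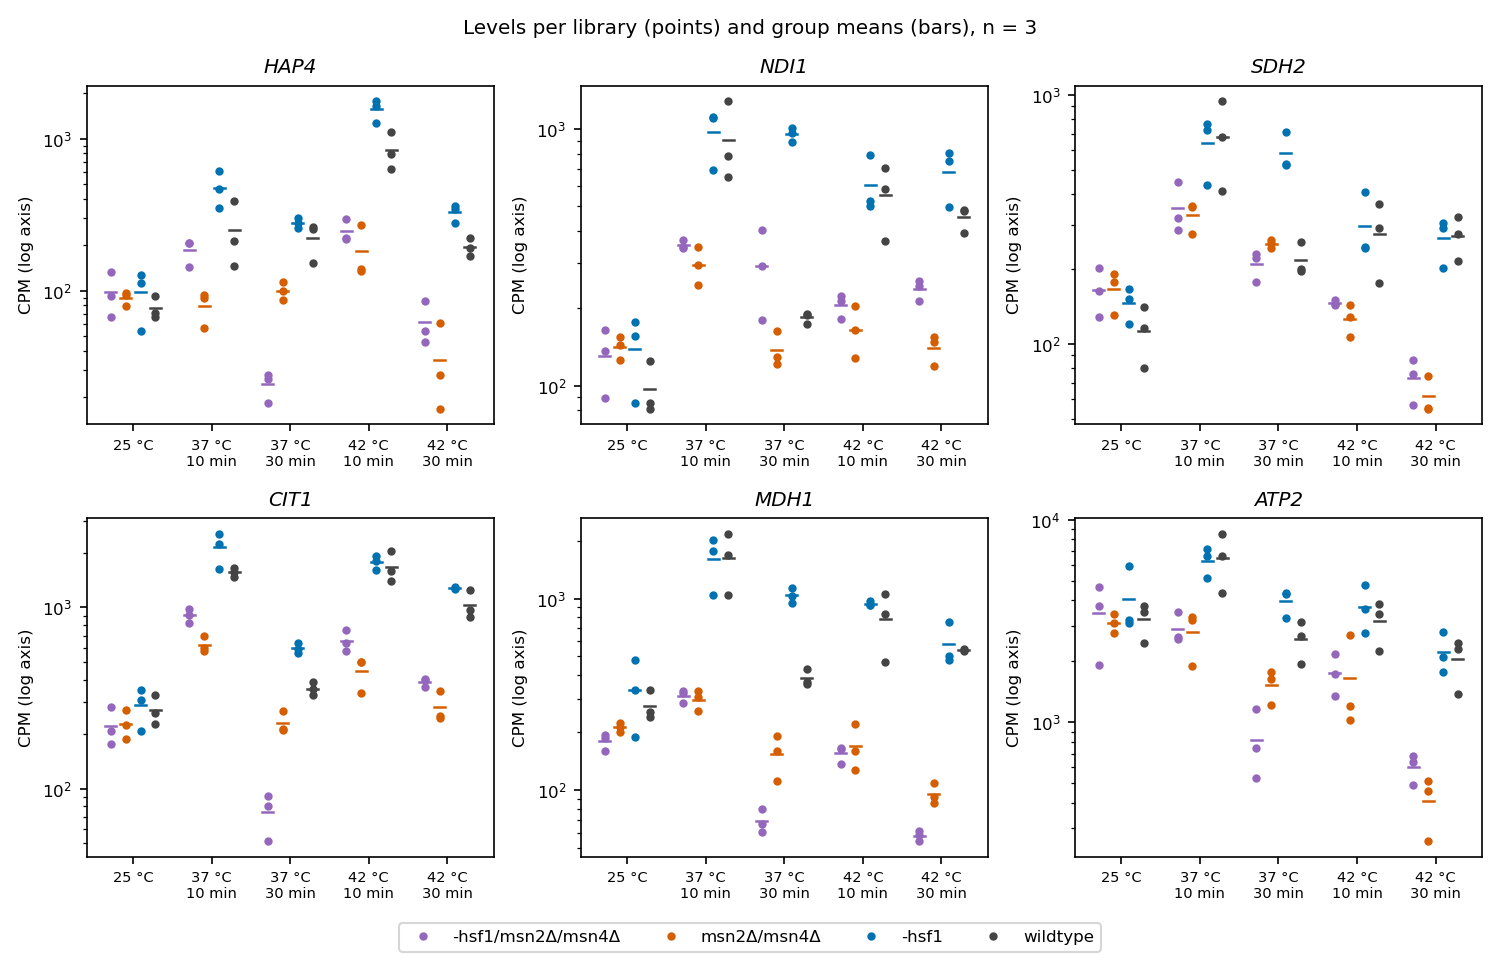
Levels in CPM on a log axis of HAP4, NDI1, SDH2, CIT1, MDH1 and ATP2 in every library, by condition, with the 4 strain states side by side from -hsf1/msn2Δ/msn4Δ to wildtype; points are libraries and bars are means of 3. HAP4 points of -hsf1 and wildtype cells after 10 min at 42 °C stand between 635 and 1762 CPM, above all msn2Δ/msn4Δ and -hsf1/msn2Δ/msn4Δ points, which stay at or below 296 CPM under that condition.

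The internal NADH dehydrogenase gene NDI1 and the external gene NDE2 rose, while the main external gene NDE1 fell at 30 min. NDI1 had 653, 788 and 1284 CPM after 10 min at 37 °C, against 81.0, 85.3 and 125 CPM at 25 °C. The groups were far apart, and the change was 3.23 ± 0.30 (adjusted p = 5.42e-13, edgeR). It was 2.51 ± 0.29 after 10 min and 2.22 ± 0.28 after 30 min at 42 °C (2.97e-10 and 2.38e-09), but 0.92 at 37 °C 30 min, under the fold required. NDE2 held 44.2, 116 and 87.7 CPM in the libraries heated to 42 °C for 30 min, against 0.522, 0.954 and 0.895 CPM at 25 °C, near the detection floor. Its change ran from 4.88 ± 0.56 at 37 °C 30 min to 6.66 ± 0.57 at 42 °C 30 min (adjusted p = 1.43e-09 and 1.9e-14, edgeR). NDE1 had 368, 285 and 308 CPM after 30 min at 37 °C, against 2035, 2070 and 1726 CPM at 25 °C, without overlap, a fall of -2.60 ± 0.27 (1.53e-10). At 42 °C the 30 min fall was -2.22 ± 0.27 (4.13e-10, edgeR), whereas at 10 min NDE1 was not called at either temperature, with means of 1618 ± 444 CPM at 37 °C and 1456 ± 157 CPM at 42 °C (SD, n = 3).

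The 4 succinate dehydrogenase genes all rose after 10 min at 37 °C. SDH2, the iron-sulfur subunit, had 413, 676 and 943 CPM, against 80.3, 116 and 141 CPM at 25 °C. SDH4, a membrane anchor, had 746, 624 and 1454 CPM, against 88.8, 91.2 and 78.3 CPM. In both genes the lowest heated library lay well above the highest unheated one, and the changes were 2.59 ± 0.28 and 3.45 ± 0.49 (adjusted p = 6.81e-11 and 6.35e-08, edgeR). SDH1, the flavoprotein subunit, changed by 1.70 ± 0.31 (9.04e-06), and SDH3, the other anchor, by 1.27 ± 0.20 (4.82e-07, edgeR; 0.75 and no call under library totals). SDH3 left the other 3 later: after 30 min at 42 °C its libraries held 48.4, 66.1 and 70.04 CPM, against 70.8, 95.6 and 81.1 CPM at 25 °C, while SDH4 had changed by 2.56 ± 0.48 (6.39e-06). SDH1 and SDH2 had then changed by 1.45 ± 0.31 and 1.27 ± 0.27 (5.66e-05 and 5.26e-05, edgeR), values of 0.90 and 0.69 without a call under library totals.

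Of the 9 cytochrome bc1 genes, 4 rose after 10 min (21% of all genes) and 4 fell after 30 min at 37 °C (13.1%). CYT1, cytochrome c1, had 2353, 2166 and 2993 CPM after 10 min at 37 °C, against 722, 870 and 635 CPM at 25 °C, a change of 1.75 ± 0.43 (adjusted p = 0.000532, edgeR). QCR7, a small core-associated subunit, changed by 1.77 ± 0.33 (1.26e-05). After 30 min at 37 °C neither was called, and 2 of 3 libraries of each lay below their 25 °C libraries: CYT1 held 690, 502 and 544 CPM, and QCR7 held 97.5, 152 and 102 CPM, against 120, 158 and 215 CPM at 25 °C. QCR8, a small subunit that contacts ubiquinone-binding parts of the complex, followed temperature instead: its mean was 142 ± 59.5 CPM after 10 min and 144 ± 19.9 CPM after 30 min at 42 °C, against 33 ± 12.9 CPM at 25 °C (SD, n = 3 each), changes of 2.10 ± 0.38 and 2.11 ± 0.38 (8.64e-06 and 4.15e-06, edgeR). At 30 min, QCR8 was 3.30 ± 0.41 higher at 42 °C than at 37 °C (1.97e-09), where it held 13.1, 21.6 and 8.64 CPM.

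The pair of cytochromes c moved in clearly opposite directions only at 42 °C 30 min. After 10 min the CYC1 mean was 853 ± 295 CPM at 37 °C and 846 ± 259 CPM at 42 °C. At 25 °C it was 1095 ± 255.5 CPM (SD, n = 3 each). CYC1, the main form, had 168, 161 and 122 CPM after 30 min at 37 °C, against 1390, 962 and 934 CPM at 25 °C, a fall of -2.87 ± 0.36 (adjusted p = 1.33e-08, edgeR). The fall at 42 °C was -1.64 ± 0.34 by then (4.28e-05). CYC7, the minor form known from hypoxic cells, held 31.9, 21.2 and 29.9 CPM after 10 min at 42 °C, against 1.04, 0 and 3.18 CPM at 25 °C. Its fitted changes were 3.10 ± 0.83, 4.14 ± 0.84 and 3.38 ± 0.83 at 37 °C 10 min, 42 °C 10 min and 42 °C 30 min (0.00132, 4.47e-05 and 0.000332, edgeR), and a fitted change from so few counts depends on the prior count. In the 37 °C 30 min libraries it held 1.30, 2.43 and 0 CPM, within the range at 25 °C.

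Cytochrome c oxidase genes fell at 37 °C 30 min, 5 of 9 (13.1% of all genes), with COX5B as the 1 that rose. COX5A, the major form of subunit 5, had 22.9, 29.5 and 18.4 CPM, against 68.2, 86.8 and 93.2 CPM at 25 °C, a fall of -1.81 ± 0.33 (adjusted p = 1.8e-05, edgeR). COX12 and COX4, 2 further subunits, changed by -2.09 ± 0.51 and -1.57 ± 0.35 (0.000989 and 0.000299, edgeR). COX5B, the minor form of subunit 5, had 18, 29.3 and 16 CPM, against 2.26, 2.67 and 10.5 CPM, a change of 1.97 ± 0.68 (0.0167). That call was lost under library totals (1.79) and without wildtype 25 °C replicate 1 (1.59) or 2 (1.64) or 37 °C 30 min replicate 2 (1.64). At 42 °C 30 min COX5B had 23.6, 30.9 and 38.5 CPM, all above every unheated library, and a change of 2.52 ± 0.69 (0.00111, edgeR). COX7, a very short gene, stood 3.60 ± 0.59 higher at 42 °C than at 37 °C after 30 min (9.9e-07, edgeR).

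In the ATP synthase, 3 of 12 genes were called higher at 37 °C 10 min (ATP2, ATP7 and ATP14), a share near the 21% of all genes, each with a change close to 1, and none of these calls held when the libraries were scaled by totals (0.48, 0.55 and 0.45). At 42 °C 30 min, 6 of 12 fell and 0 rose (all genes 29.5% lower and 30.2% higher). ATP5, the stalk subunit that confers oligomycin sensitivity, had 28.7, 42.2 and 43.3 CPM, against 169, 209 and 242 CPM at 25 °C, a fall of -2.44 ± 0.31 (adjusted p = 2.78e-09, edgeR). ATP1, the alpha subunit, had 358, 492 and 659 CPM, against 1496, 1471 and 1238 CPM, a fall of -1.48 ± 0.27 (3.4e-06). ATP20 and ATP16, a dimer-associated subunit and the delta subunit, changed by -2.13 ± 0.47 and -1.49 ± 0.40 (8.02e-05 and 0.00107, edgeR). The beta subunit gene ATP2 was not called there, at 1374, 2305 and 2457 CPM against 3516, 3760 and 2455 CPM, groups that only just overlap. ATP7, a peripheral stalk subunit, ran the other way, at 641, 550 and 525 CPM against 260, 297 and 350 CPM, a change of 0.92 that missed the fold required.

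Citric acid cycle genes rose at 10 min, 8 of 10 at 37 °C (21% of all genes) and 4 of 10 at 42 °C (23.1%), and none fell. CIT1, citrate synthase, had 1463, 1655 and 1570 CPM after 10 min at 37 °C, against 329, 226 and 262 CPM at 25 °C, a change of 2.52 ± 0.23 (adjusted p = 3.96e-13, edgeR). MDH1, malate dehydrogenase, had 1042, 2183 and 1684 CPM, against 255, 241 and 332 CPM, a change of 2.57 ± 0.28 (6.81e-11). IDH2, a subunit of isocitrate dehydrogenase, had 2207, 1987 and 2688 CPM, against 650, 543 and 625 CPM, a change of 1.92 ± 0.22 (3.29e-10, edgeR). By 30 min at 37 °C, no cycle gene was called in either direction; CIT1 held 328, 355 and 389 CPM, and its lowest library lay just under the highest one at 25 °C. At 42 °C the cycle split: CIT1 was still up by 1.92 ± 0.22 at 30 min (1.96e-10), while ACO1, aconitase, had 400, 434 and 455 CPM, against 1256, 992 and 1009 CPM, a fall of -1.34 ± 0.29 (6.75e-05, edgeR). LSC1, the alpha subunit of succinyl-CoA ligase, also fell there (-1.25 ± 0.25, 1.77e-05), a call lost without wildtype 42 °C 30 min replicate 1 (-0.89).

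The times and temperatures were also compared directly within heated wildtype cells. In the 37 °C samples, 33 of 50 members were lower at 30 min than at 10 min and 0 were higher, where 8.47% of all genes were called lower and 10.3% higher, and the members' median was -1.51. NDI1 (-2.30 ± 0.28, adjusted p = 1.33e-08, edgeR), CIT1 (-2.13 ± 0.23, 3.32e-10) and CYC1 (-2.51 ± 0.36, 2.59e-07) were among them, and HAP4 was not called. At 42 °C, 10 were lower and 1 higher at 30 min (16.3% and 10.5%), with HAP4 and ACO1 (-1.82 ± 0.29, 1.67e-06) the furthest down. Without wildtype 42 °C 30 min replicate 2 this count was 6, and without 10 min replicate 3 it was 7. After 10 min, 2 were higher and 7 lower at 42 °C than at 37 °C (15.4% and 6.62%), the higher being HAP4 and QCR8, a total of 4 without wildtype 42 °C 10 min replicate 1. After 30 min, 15 were higher and 3 lower at 42 °C (21.5% and 22.3%), with 9 higher and 5 lower under library totals. CYC7, COX7, QCR8, QCR9 (2.55 ± 0.67, 0.0011) and COX13 (2.19 ± 0.27, 1.84e-09, edgeR) led the higher ones.

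The share of an isoform within its pair needs no scaling between libraries, since both genes are read in the same library, and is given per kilobase. In wildtype cells, COX5B made up 5.52% ± 4.12 of the COX5A and COX5B pair at 25 °C, 10.0% ± 1.05 after 10 min and 47.2% ± 2.93 after 30 min at 37 °C, and 25.1% ± 1.87 and 39.3% ± 6.18 after 10 and 30 min at 42 °C (SD, n = 3 each). In single libraries it stood at 44.4%, 50.2% and 46.9% at 37 °C 30 min, above the 3.25%, 3.02% and 10.3% at 25 °C. NDE2 made up 0.0423% ± 0.0141 of the NDE1 and NDE2 pair at 25 °C, 3.32% ± 1.63 and 7.24% ± 1.43 at 37 °C, and 2.35% ± 0.681 and 16.7% ± 6.80 at 42 °C. CYC7 made up 4.56% ± 0.797 of the cytochrome c pair after 30 min at 42 °C, against 0.133% ± 0.172 at 25 °C. A share rises both when the minor gene rises and when the major one falls. At 37 °C 30 min NDE2 and COX5B rose while NDE1 and COX5A fell, but CYC7 was not called while CYC1 fell. With 3 libraries a group, an exact permutation test of a single share cannot go below p = 0.10, so none is given.

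**Figure D3:**
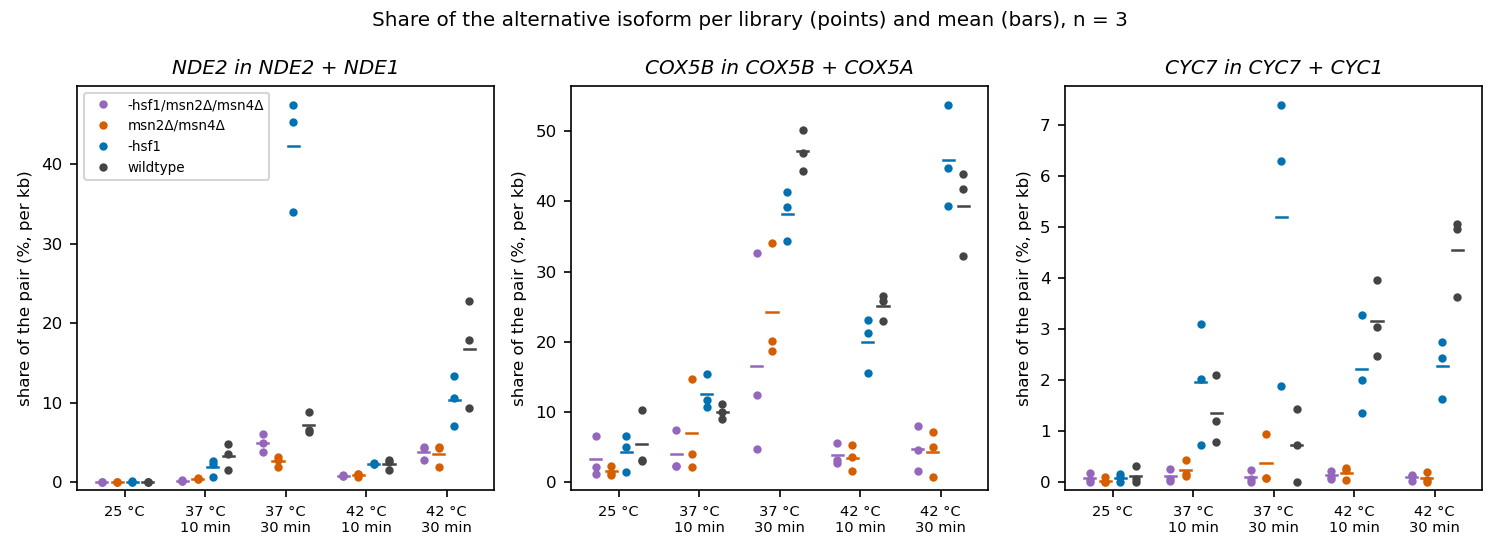
Share in percent of COX5B in the COX5A and COX5B pair, of NDE2 in the NDE1 and NDE2 pair and of CYC7 in the CYC1 and CYC7 pair, per kilobase, in every library by condition, with the 4 strain states side by side; points are libraries and bars are means of 3. COX5B reaches 44.4% to 50.2% in wildtype cells at 37 °C 30 min, and NDE2 reaches 34.1% to 47.5% in -hsf1 cells under the same condition.

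In -hsf1 cells the early rise of these genes looked like that of wildtype cells, and the later fall at 37 °C was smaller. At 37 °C, 25 rose and 0 fell after 10 min (all genes 16.1% and 15.2%). By 30 min, 14 rose and 5 fell (22.9% and 25.0%), against 4 and 15 in wildtype cells. At 42 °C, 13 rose and 1 fell after 10 min (22.6% and 17.2%), and 13 rose and 7 fell after 30 min (29.8% and 27.2%). The difference between the 2 heat responses was tested directly, as the change with heat in -hsf1 cells minus that in wildtype cells; both changes use their own 25 °C libraries. At 37 °C 30 min, 9 members had a higher and 1 a lower response (7.89% and 14.8% of all genes), with a median difference of 0.65. At 37 °C 10 min 0 members were higher and 0 lower (1.65% and 1.58%), at 42 °C 10 min 0 and 0 (0.0659% and 1.05%), and at 42 °C 30 min 0 and 0 (0.659% and 2.60%). In those 3 comparisons 2, 0 and 4 members had an unadjusted p under 0.05 in edgeR, and DESeq2 called 0. Library totals gave 7 calls at 42 °C 30 min, all higher, with the median of all genes moved up by 0.80. The -hsf1 25 °C replicate 2 library alone decided whether 0 or 1 member was called at 37 °C 10 min.

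The 9 members with a higher response in -hsf1 cells at 37 °C 30 min came from several parts of the chain. NDI1 had 971, 895 and 1013 CPM in -hsf1 cells, against 174, 189 and 190 CPM in wildtype cells, and its response differed by 1.86 ± 0.39 (adjusted p = 0.000201, edgeR). ATP7 had 654, 553 and 633 CPM, against 149, 258 and 214 CPM, a difference of 1.71 ± 0.40 (0.000904). QCR10 and COX13 differed by 1.60 ± 0.47 and 1.32 ± 0.37 (0.00757 and 0.00499, edgeR). The other 5 were SDH2, MDH1, QCR7, QCR8 and COX7, whose calls each ended under at least 1 alternative. SDH3 was the 1 with a lower response, at 55.8, 49 and 51.2 CPM in -hsf1 cells, against 122, 105 and 138 CPM in wildtype cells, a difference of -1.35 ± 0.28 (0.000188). So the subunits of succinate dehydrogenase parted in -hsf1 cells, with SDH1 up by 1.42 ± 0.31, SDH2 by 2.01 ± 0.28 and SDH4 by 1.67 ± 0.46 with heat (0.000104, 1.69e-08 and 0.00162, edgeR), while SDH3 stood below its range at 25 °C. NDE1 fell and NDE2 rose in -hsf1 cells as well, by -3.27 ± 0.28 and 6.38 ± 0.54 (2.5e-14 and 2.81e-14, edgeR), and NDE2 there made up 42.3% ± 7.20 of the pair, against 7.24% ± 1.43 in wildtype cells. The groups do not overlap, at 34.1%, 47.5% and 45.3% against 6.55%, 6.29% and 8.88%, but neither gene's response was called different from that of wildtype cells (NDE2 1.49 ± 0.83 and NDE1 -0.67 ± 0.36, adjusted p = 0.189 and 0.176, edgeR).

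The mean HAP4 level was higher in heated -hsf1 cells than in heated wildtype cells under each of the 4 heat conditions, at 476 ± 132, 280 ± 21.2, 1562 ± 255 and 328 ± 43.1 CPM, against 249 ± 126, 223 ± 61.2, 844 ± 241 and 194 ± 26.2 CPM (SD, n = 3 each). Its response was not called different under any of them.

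In msn2Δ/msn4Δ cells fewer members were called higher than in wildtype cells under every heat condition, though at 37 °C 30 min the counts were 3 and 4. The share of all genes called higher was also smaller under each condition. More members fell at 42 °C, above all at 30 min, but at 37 °C 30 min 8 fell, against 15 in wildtype cells. The 37 °C samples had 7 higher and 0 lower after 10 min (all genes 8.02% and 13.2%), and 3 higher and 8 lower after 30 min (7.87% and 7.87%). At 42 °C, 5 rose and 5 fell after 10 min (19.5% and 13.7%), and 1 rose and 22 fell after 30 min (26.2% and 23.2%), the 1 being NDE2. The members' median changes were 0.38, -0.52, -0.05 and -0.84. IDH2, CIT1, NDI1 and LSC2, the beta subunit of succinyl-CoA ligase, still rose after 10 min at 37 °C, by 1.03 ± 0.22, 1.44 ± 0.22, 1.07 ± 0.27 and 1.24 ± 0.25 (adjusted p = 0.000142, 6.12e-07, 0.00188 and 8.72e-05, edgeR). Neither HAP4 nor any succinate dehydrogenase gene was called at that time.

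Set against wildtype, the response was lower for 9 members and higher for 0 at 37 °C 10 min (9.79% and 3.57% of all genes), for 8 and 0 at 42 °C 10 min (6.59% and 2.92%), and for 22 with 1 higher at 42 °C 30 min (11% and 12.7%). At 37 °C 30 min 0 were lower and 0 higher (0.231% and 0.0329%), with 4 at an unadjusted p under 0.05 and 0 calls by DESeq2. The counts of 9 and 8 moved with single libraries: 5 without wildtype 37 °C 10 min replicate 3, and 19 without msn2Δ/msn4Δ 42 °C 10 min replicate 1 or 15 without wildtype 42 °C 10 min replicate 1. With the library set as a term they were 15 and 14. Library totals move the median of all genes up by 0.33 to 0.61 in these 4 comparisons and give the 50 members a median of 0.05 at 37 °C 10 min and 0.34 at 37 °C 30 min, against -0.56 and -0.01 with TMM scaling. Library totals left 16 lower and 1 higher, at 42 °C 30 min, with a members' median of -0.51, against -0.89.

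At 42 °C 30 min the genes with a lower response included NDE2, the 4 succinate dehydrogenase genes, HAP4 and NDI1. NDE2 differed by -3.28 ± 0.90 (adjusted p = 0.00531, edgeR), a call lost without msn2Δ/msn4Δ 25 °C replicate 3 (-2.13). SDH1 had 148, 118 and 92.8 CPM in msn2Δ/msn4Δ cells, against 617, 866 and 974 CPM in wildtype cells, and its response differed by -3.05 ± 0.44 (adjusted p = 9.68e-07, edgeR). SDH4 had 87.5, 88.9 and 58.8 CPM, against 434, 457 and 630 CPM, a difference of -3.21 ± 0.65 (0.000243). SDH2 differed by -2.71 ± 0.38 and SDH3 by -1.72 ± 0.28 (6.43e-07 and 1.15e-05, edgeR). HAP4 had 61.1, 27.7 and 16.6 CPM, against 222, 170 and 190 CPM, a difference of -2.69 ± 0.50 (6.33e-05), and stood below its own 25 °C libraries of 96.2, 79.2 and 93.9 CPM. NDI1 had 154, 148 and 119 CPM, close to its 126, 144 and 154 CPM at 25 °C, and differed by -2.23 ± 0.39 (2.8e-05, edgeR). ATP2 had 511, 456 and 259 CPM, against 1374, 2305 and 2457 CPM in wildtype cells, a difference of -2.25 ± 0.49 (0.000607). CYC1 was the 1 higher member, at 1065, 967 and 671 CPM against 514, 274 and 263 CPM, by 1.53 ± 0.48 (0.0136, edgeR), a call lost without wildtype 42 °C 30 min replicate 2 (1.36) or 3 (1.34).

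The early differences involved a subset of these genes. At 37 °C 10 min, NDE2 had the lowest difference, -3.14 ± 0.90 (adjusted p = 0.0135, edgeR), a call lost without msn2Δ/msn4Δ 25 °C replicate 3 (-1.93) or wildtype 37 °C 10 min replicate 3 (-2.73). SDH4 differed by -2.60 ± 0.65, NDI1 by -2.16 ± 0.39 and MDH1 by -2.08 ± 0.38 (0.00429, 8.05e-05 and 8.59e-05, edgeR). MDH1 had 305, 329 and 258 CPM in msn2Δ/msn4Δ cells, against 1042, 2183 and 1684 CPM in wildtype cells. HAP4 had 92.9, 89.2 and 56.7 CPM, against 212, 146 and 390 CPM, and the difference of -1.87 ± 0.49 (0.00661) became -1.31 without a call when wildtype 37 °C 10 min replicate 3 was left out. At 42 °C 10 min, HAP4 had 272, 134 and 139 CPM, against 635, 790 and 1108 CPM, a difference of -2.44 ± 0.49 (0.0004, edgeR). SDH1, NDI1 and MDH1 differed there by -2.21 ± 0.44, -2.29 ± 0.39 and -1.83 ± 0.38 (0.0003, 3.1e-05 and 0.000532, edgeR). The early rise of IDH2 differed by less than the fold required in msn2Δ/msn4Δ cells, whose libraries held 1250, 1126 and 1137 CPM at 37 °C 10 min, against 446, 706 and 563 CPM at 25 °C.

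**Figure D4:**
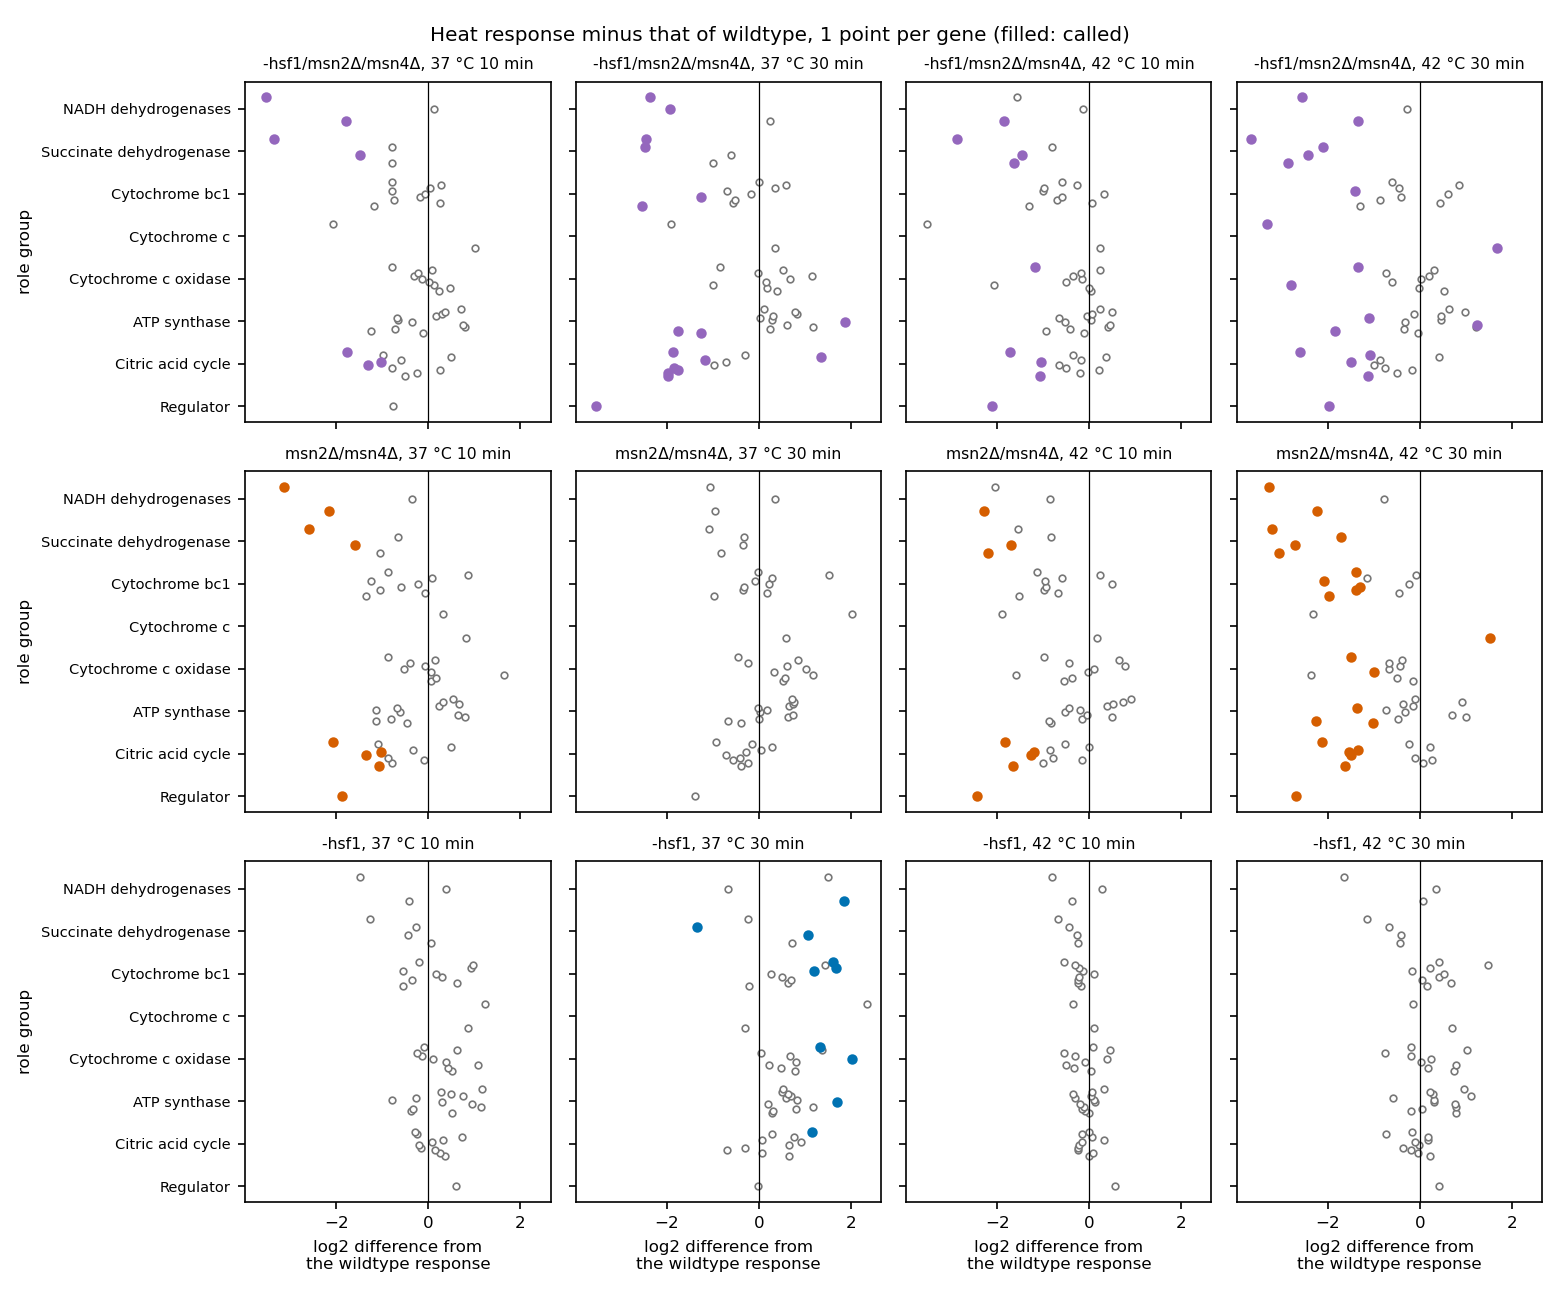
Difference between the heat response of each of 3 strain states (panel rows) and that of wildtype, on a log2 axis, at the 4 heat conditions (panel columns), with 1 point per gene grouped by role on the vertical axis and filled points for calls. The filled points of both deletion states lie below 0 for every succinate dehydrogenase gene called and for HAP4, down to -3.68 for SDH4, while the filled points of -hsf1 cells are all at 37 °C 30 min and lie above 0 except SDH3 at -1.35.

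In -hsf1/msn2Δ/msn4Δ cells the most members fell at 37 °C 30 min. At this temperature 7 rose and 0 fell after 10 min (all genes 4.68% and 8.55%), and 4 rose and 23 fell after 30 min (16.9% and 20.9%). At 42 °C, 7 rose and 0 fell after 10 min (17.1% and 13.6%), and 5 rose and 15 fell after 30 min (25.5% and 24.6%). The median changes were 0.49, -0.95, -0.12 and -0.65. NDE1 fell to 89.9, 69.3 and 113 CPM after 30 min at 37 °C, against 2532, 1474 and 2276 CPM at 25 °C, a change of -4.53 ± 0.29 (adjusted p = 2.12e-17, edgeR). HAP4 had 26.3, 18.2 and 27.8 CPM, against 133, 66.9 and 91.9 CPM, a change of -2.01 ± 0.36 (6.15e-06), and CYT1 fell to 104, 44.9 and 214 CPM, against 1442, 376 and 902 CPM (-2.91 ± 0.45, 4.02e-07, edgeR). CIT1 and IDH2, which had risen at 10 min (2.02 ± 0.22 and 1.14 ± 0.22), then stood below 25 °C by -1.59 ± 0.22 and -1.41 ± 0.22 (4.62e-08 and 3.62e-07, edgeR). LSC2 and ATP7 went the other way: LSC2 had 412, 433 and 346 CPM, against 67.7, 102 and 100 CPM, a change of 2.14 ± 0.26 (1.14e-09), and ATP7 had 486, 846 and 483 CPM, against 160, 286 and 277 CPM, a change of 1.33 ± 0.29 (0.000112, edgeR). The 7 calls at 37 °C 10 min became 11 without -hsf1/msn2Δ/msn4Δ 25 °C replicate 3 and 13 under library totals, all higher.

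Against wildtype, the response of -hsf1/msn2Δ/msn4Δ cells was lower for 7 members and higher for 0 at 37 °C 10 min (13.2% and 11% of all genes), lower for 15 and higher for 2 at 37 °C 30 min (16.7% and 9.64%), lower for 9 and higher for 0 at 42 °C 10 min (7.92% and 2.55%), and lower for 17 and higher for 2 at 42 °C 30 min (14.9% and 17.1%). At 37 °C 30 min the lower ones included HAP4 (-3.55 ± 0.50, adjusted p = 3.31e-07), CYT1 (-2.55 ± 0.60, 0.000974), SDH3 (-2.47 ± 0.28, 3.25e-09) CIT1 (-1.98 ± 0.31, 2.36e-06) and NDE1 (-1.93 ± 0.36, 5.04e-05, edgeR). NDE2 was also called, at -2.37 ± 0.89 (0.0387, edgeR), but not under DESeq2's RLE scaling (-2.30), library totals (-1.83) or no filter (-2.26), nor without several single libraries. The 2 higher ones were ATP7 (1.88 ± 0.40, 0.000301) and LSC2 (1.35 ± 0.35, 0.00273, edgeR). By 30 min at 42 °C, SDH4 (-3.68 ± 0.66, 2.09e-05), SDH1 (-2.86 ± 0.44, 1.45e-06), MDH1 (-2.61 ± 0.38, 5.34e-07) and SDH2 (-2.44 ± 0.38, 2.03e-06, edgeR) were lower. The minor isoform genes CYC7 (-3.31 ± 1.34, 0.0467), COX5B (-2.80 ± 1.01, 0.0255) and NDE2 (-2.55 ± 0.88, 0.0203, edgeR) were called lower too, but each call was lost under at least 1 alternative. The 2 higher members were CYC1, by 1.68, and an ATP synthase gene, and neither call held in all settings. MDH1 there held 54, 60.9 and 58.1 CPM, against 537, 546 and 530 CPM in wildtype cells. At the 10 min conditions SDH4 differed by -3.36 ± 0.65 at 37 °C and -2.89 ± 0.65 at 42 °C (9.5e-05 and 0.00127, edgeR). NDE2 differed by -3.54 ± 0.91 at 37 °C 10 min (0.00256, edgeR), a call lost without -hsf1/msn2Δ/msn4Δ 25 °C replicate 3 (-2.30). Library totals move the median of all genes up by 0.53 to 1.01 in these 4 comparisons and turn the members' median positive in each, at 0.39, 0.12, 0.29 and 0.49, against -0.33, -0.41, -0.46 and -0.55 with TMM scaling. The splits then were 2 lower and 3 higher, 11 and 2, 3 and 0, and 5 and 8. The 7 calls at 37 °C 10 min became 12 without -hsf1/msn2Δ/msn4Δ 25 °C replicate 2 or without wildtype 37 °C 10 min replicate 1.

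The COX5B share at 42 °C 30 min was 4.73% ± 3.24 in -hsf1/msn2Δ/msn4Δ cells, 4.34% ± 3.31 in msn2Δ/msn4Δ cells and 46% ± 7.28 in -hsf1 cells, against 39.3% ± 6.18 in wildtype cells (SD, n = 3 each). The 6 libraries of the 2 deletion states ran from 0.721% to 8.05%, and the 6 of the 2 other states from 32.3% to 53.8%, without overlap. They also lie in different library sets, so set and deletion cannot be told apart here. At 37 °C 30 min the states lay closer, at 16.6% ± 14.4, 24.3% ± 8.52, 38.3% ± 3.58 and 47.2% ± 2.93 in the same order. CYC7 was at most 2.55 CPM in every -hsf1/msn2Δ/msn4Δ library and at most 5.51 CPM in every msn2Δ/msn4Δ library, while the heated wildtype libraries at 42 °C held 14.6 to 31.9 CPM. NDE2 still rose in both deletion states under all 4 conditions, by 2.45 ± 0.60 to 4.10 ± 0.56 in -hsf1/msn2Δ/msn4Δ cells and by 2.85 ± 0.59 to 3.83 ± 0.57 in msn2Δ/msn4Δ cells (largest adjusted p = 0.00191, edgeR), though its level at 42 °C 30 min was 14.2 ± 2.54 and 8.50 ± 2.4 CPM, against 82.8 ± 36.4 CPM in wildtype cells. At 25 °C it made up 0.039% ± 0.039 and 0.037% ± 0.034 of the NDE1 and NDE2 pair in these states (SD, n = 3 each). That is near its share in wildtype cells, 0.0423% ± 0.0141, where its level lay near the detection floor. The sizes of these rises, and of the NDE2 response differences, therefore rest on few counts at 25 °C.

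All 50 members together took 1.82% ± 0.108 of a library's counts in -hsf1/msn2Δ/msn4Δ cells at 25 °C, 1.85% ± 0.0669 in msn2Δ/msn4Δ cells, 1.73% ± 0.253 in -hsf1 cells and 1.85% ± 0.185 in wildtype cells (SD, n = 3 each). The shares at 37 °C 10 min were 3.02% ± 0.0923, 2.29% ± 0.0827, 3.80% ± 0.526 and 2.68% ± 0.242 in the same order, above the unheated range in each state. They were 1.38% ± 0.115, 0.761% ± 0.126, 1.99% ± 0.151 and 1.17% ± 0.0910 at 42 °C 30 min. A share of counts also moves when other genes change.

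**Figure D5:**
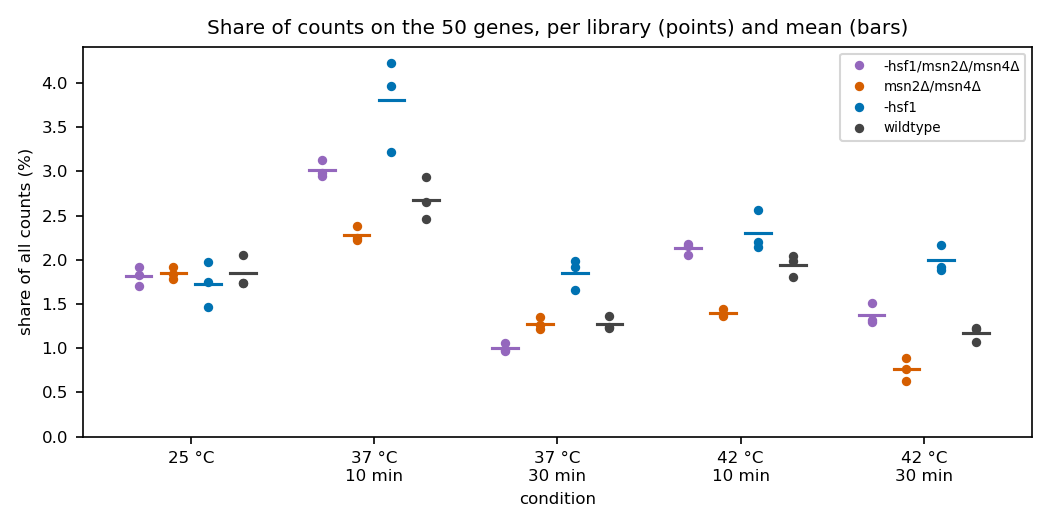
Share in percent of each library's counts that fell on the 50 members, by condition, with the 4 strain states side by side; points are libraries and bars are means of 3. In every state the points at 37 °C 10 min stand highest, with -hsf1 cells at 3.21% to 4.23%, and msn2Δ/msn4Δ cells at 42 °C 30 min stand lowest, at 0.633% to 0.885%.

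The promoter letters shown at the start were set beside the changes as a description. Of the 22 members with a CCCCT, 12 (54.5%) rose in wildtype cells after 10 min at 37 °C, and of the 28 without one, 12 (42.9%) rose. Among all genes tested with a window, the shares were 41% with and 15.6% without. At 42 °C 30 min, the response of msn2Δ/msn4Δ cells was lower than that of wildtype cells for 13 of the 22 members (59.1%) with a CCCCT and 9 of the 28 (32.1%) without, where all genes gave 25.5% and 7.42%. For CCAAT the members' order was the other way round: 14 of 38 (36.8%) with and 8 of 12 (66.7%) without had a lower response, and all genes gave 10.8% and 11.9%.

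Genes that serve the same pathway were counted from lists outside the 50, in wildtype cells after 10 min at 37 °C and after 30 min at 42 °C. Among all genes 21% were higher and 22.2% lower at the first, and 30.2% and 29.5% at the second. Of 10 genes of coenzyme Q synthesis that were tested, 5 rose and 1 fell at 37 °C 10 min, and 6 rose and 1 fell at 42 °C 30 min. COQ6 rose most at 42 °C, by 2.67 ± 0.23 (adjusted p = 1.89e-14, edgeR), and COQ8 was the 1 that fell, at -1.43 ± 0.44 (0.00378). Of 42 assembly factors, 8 rose and 3 fell, then 7 and 4, shares called higher that lay below those of all genes; the succinate dehydrogenase assembly factors SDH6 (3.51 ± 0.52, 8.25e-08) and SDH8 (2.20 ± 0.31, 1.65e-08, edgeR) rose at 42 °C 30 min. Of 23 genes for pyruvate entry and mitochondrial carriers, 5 rose and 6 fell, then 4 and 9, with the oxaloacetate carrier gene OAC1 at 7.62 CPM at 42 °C 30 min, against 246 CPM at 25 °C (-5.01 ± 0.26, 3.1e-21, edgeR).

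Of 20 genes for the glyoxylate cycle, isozymes outside the mitochondrial cycle and substrates of respiration, 9 rose and 1 fell, then 13 and 2. Among all genes 21% rose and 22.2% fell at 37 °C 10 min, then 30.2% and 29.5% at 42 °C 30 min. CYB2, the lactate dehydrogenase that feeds cytochrome c, rose by 6.31 ± 0.53 at 37 °C 10 min (adjusted p = 4.35e-14, edgeR). Of 8 haem synthesis genes, 2 rose and 1 fell, then 3 and 2, with HEM15, ferrochelatase, at 2.05 ± 0.22 (3.84e-11, edgeR). Both haem shares called higher lay near those of all genes. Of 12 minor, inhibitory or paralogous subunits, 5 rose and 1 fell, then 5 and 2, and STF2, which acts with the inhibitor of ATP synthase, rose by 5.62 ± 0.62 at 42 °C 30 min (5.37e-11, edgeR). Of 10 regulators around the Hap complex, 5 rose and 0 fell, then 4 and 1. HAP2, the CCAAT-binding partner of Hap4, rose by 1.59 ± 0.23 and 1.84 ± 0.23 (6.68e-08 and 1.3e-09, edgeR).

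The differences between states reached these lists too. In -hsf1 cells at 37 °C 30 min the response was higher for 5 of 10 coenzyme Q genes and 6 of 42 assembly factors and lower for 0 of either, while for 23 pyruvate entry and carrier genes it was higher for 2 and lower for 7 (all genes 7.89% higher and 14.8% lower). In msn2Δ/msn4Δ cells at 42 °C 30 min it was lower for 5 of 10 coenzyme Q genes and 9 of 42 assembly factors and higher for 0 of either (all genes 11% lower and 12.7% higher). HAP2 was among the genes with a lower response there, at -1.87 ± 0.32 (adjusted p = 1.89e-05, edgeR), as it was at 42 °C 10 min (-1.77 ± 0.32, 7.37e-05). The lists were chosen with earlier results of these data known and their counts are given as a description.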

How the data were processed

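The deposited count tables give whole-number counts per gene for 60 libraries of poly(A) RNA (Lexogen SENSE mRNA-Seq V2, 50 bp single reads). The submitters' processing notes name bcl2fastq 1.8.4, featureCounts 2.0.0, DESeq2 1.28.1 and build R64, and the table headers name contextmap and trimmed reads. The authors' table of comparisons was not used. Whether counting used the strand is not given in the sources used here.

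All 60 libraries were fitted together with 1 mean per group in edgeR 4.0.16 (R 4.3.3): TMM scaling, filterByExpr (6070 genes kept, 1056 removed), quasi-likelihood F tests and Benjamini-Hochberg adjustment over all genes tested. A call needs an adjusted p under 0.05 and a log2 change of at least 1. SE is the log2 change divided by the root of F. CPM are TMM-scaled. There were 36 comparisons: 16 of heat against 25 °C, 4 between states at 25 °C, 12 of a state's heat response minus that of wildtype, which all share the wildtype libraries, and 4 within heated wildtype cells. Features were matched to R64 by ID (6048 of 7126); 0.459% of counts lay on the others. On simulated counts for wildtype 42 °C 30 min against 25 °C, 74 of 92 genes raised by 1.5 on the log2 scale were called. Of 93 lowered by 3, 85 were called, with 4 false calls among 5465 unchanged genes. For the response difference of -hsf1 at 42 °C 30 min, 46 of 92 and 79 of 93 were called, with 8 false calls. The simulation left all other heated groups at their 25 °C means and drew libraries independently. In the real wildtype comparison 30.2% of all genes were called higher and 29.5% lower. The simulated false-call counts therefore do not carry over to it.

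Statistics are printed for HAP4, the isoform pairs and up to 3 called members per role and direction whose libraries do not overlap (for response differences, the largest called); SDH3, NDI1, ATP2, ATP7 and LSC2 are also followed after their values were seen. Members and lists were chosen with earlier results of these data known. Alternatives were RLE scaling, library totals, no filter, DESeq2 1.42.0, the library set as a term, a replicate block, and leaving out libraries singly or the 5 that stand apart. Within groups no 2 libraries agreed within sampling noise. SE and SD carry the spread between libraries, while the floor of 3 counts reflects depth only.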

Additional observations from a re-analysis of the deposited data

Results flagged for a closer look

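Each value here was singled out because a test of the difference itself, a state's heat response minus that of wildtype in the edgeR fit, passed an adjusted p of 0.05 with a size of at least 1 on the log2 scale. No explanation was tested. All of these comparisons share the wildtype libraries, so they are not independent of each other.

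In -hsf1 cells at 37 °C 30 min, 9 members had a higher and 1 a lower response than in wildtype cells (all genes 7.89% and 14.8%). Of these calls, 4 of 9 higher and 1 of 1 lower held in all settings. NDI1 (1.86), ATP7 (1.71) and QCR10 (1.60) were among the higher ones, and SDH3 (-1.35) was the lower one.

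In msn2Δ/msn4Δ cells, 9 members had a lower response at 37 °C 10 min, with SDH4 at -2.60, NDI1 at -2.16 and MDH1 at -2.08. At 42 °C 10 min 8 had a lower response, with HAP4 at -2.44, NDI1 at -2.29, SDH1 at -2.21 and MDH1 at -1.83. At 42 °C 30 min 22 had a lower and 1 a higher response, with SDH4 at -3.21, SDH1 at -3.05, SDH2 at -2.71 and HAP4 at -2.69. In the same order, 3 of 9, 6 of 8 and 15 of 22 lower calls held in all settings, and 0 of the 1 higher.

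In -hsf1/msn2Δ/msn4Δ cells, 7 members had a lower response at 37 °C 10 min, with SDH4 at -3.36. That share of the 50 lay near the 13.2% of all genes, and 1 of the 7 kept its call in all settings. At 37 °C 30 min 15 had a lower and 2 a higher response, with HAP4 at -3.55, CYT1 at -2.55, SDH3 at -2.47 and CIT1 at -1.98. At 42 °C 10 min 9 had a lower response, with SDH4 at -2.89, HAP4 at -2.12 and NDI1 at -1.85. At 42 °C 30 min 17 had a lower and 2 a higher response, with SDH4 at -3.68, SDH1 at -2.86, MDH1 at -2.61 and SDH2 at -2.44. Among all genes, 16.7%, 7.92% and 14.9% were called lower in the last 3 of these comparisons. The shares called higher were 9.64% at 37 °C 30 min and 17.1% at 42 °C 30 min. Calls that held in all settings were 10 of 15 lower and 2 of 2 higher at 37 °C 30 min, and 3 of 9 lower at 42 °C 10 min. At 42 °C 30 min they were 5 of 17 lower and 0 of 2 higher. The genes named in this section kept their call under every alternative and with each library left out.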

How the results depend on the processing

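Counts of members called were compared as sums of higher and lower calls, which do not show a turn of direction. Under library totals, the -hsf1/msn2Δ/msn4Δ response splits at 37 °C 10 min and 42 °C 30 min turned from more lower to more higher calls. The wildtype split at 42 °C 30 min turned from more higher to more lower. The sums stayed within 1.5 times under every alternative and with each library left out, apart from the following, whose causes were not tested. Library totals gave 13 for wildtype and 13 for -hsf1/msn2Δ/msn4Δ at 37 °C 10 min, 7 for the response difference of -hsf1 at 42 °C 30 min, 3 for that of -hsf1/msn2Δ/msn4Δ at 42 °C 10 min, and turned the ATP1 response of -hsf1/msn2Δ/msn4Δ at 42 °C 30 min to 1.0. Without the 5 libraries, state differences at 25 °C for -hsf1/msn2Δ/msn4Δ against wildtype gave 1, and the responses of msn2Δ/msn4Δ at 42 °C 10 min and -hsf1/msn2Δ/msn4Δ at 37 °C 10 min gave 20 and 12. The library set as a term gave 15 and 14 for msn2Δ/msn4Δ responses at 37 °C and 42 °C 10 min. RLE and DESeq2 each gave 7 for wildtype 42 °C, 30 against 10 min. Leaving out single libraries gave 7 to 11 (-hsf1/msn2Δ/msn4Δ 37 °C 10 min), 12 to 22 (wildtype 37 °C 30 min), 0 to 1 (-hsf1 response 37 °C 10 min), 6 to 12 (-hsf1/msn2Δ/msn4Δ response 37 °C 10 min), 5 to 13 and 8 to 19 (msn2Δ/msn4Δ responses at 10 min, 37 °C and 42 °C), 4 to 13 (wildtype 10 min, 42 °C against 37 °C) and 6 to 9 (wildtype 42 °C, 30 against 10 min). Of 12500 member values under other settings, 12078 stayed called in the same direction or stayed uncalled. Direction was not compared for values that stayed uncalled. A further 213 lost and 208 gained a call, and 1 reversed. Replicate numbers did not pair the libraries (mean correlation 0.028 for the same number, -0.013 for others), while libraries of the same set deviated together (0.312 with the same number and 0.208 with another); with the replicate block, wildtype 37 °C 10 min had 23 calls and no count moved by over 1.5 times. With the set term, 2 differences at 25 °C against wildtype could not be fitted. Depth limits CYC7 and NDE2 in wildtype cells at 25 °C, with 6, 0 and 32 and 3, 5 and 9 counts. NDE2 is limited in a like way in both deletion states at 25 °C.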
